A study of Mus musculus with 8 samples.

Results

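The comparison described here set dorsal root ganglia collected 30 days after carrageenan injection (30d) against ganglia of mice that had received no treatment (0d). It covered the 14948 genes that reached 1 CPM (counts scaled to a common library total) in 2 or more of the 8 libraries of a time course, out of 24421 genes in the deposited table. The mice were C57BL/6J, of 8 weeks of age by the series' design text, while the study's methods give male mice and a range of ages that begins there. At 0d they were naive, and at 1d, 3d and 30d they had received 20 µl of 1% carrageenan in the left hind paw 1, 3 or 30 days earlier. Ganglia of lumbar levels L3 to L5 were taken after perfusion with an RNA preservative, and each library came from a pool of 2 to 3 mice, with 2 libraries per time point. All mice were wild type, no vehicle-injected or uninjected age-matched group at 30d was analysed here, and each library holds whatever cells the dissected ganglia held. Of the 14948 genes, 14040 reached 1 CPM in all 8 libraries. Another 25 were kept through the 30d libraries alone and 6 through the 0d libraries alone, and those had to differ between the groups.

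Dorsal root ganglia hold the cell bodies of the sensory neurons that carry touch, pain, temperature and position signals from the body to the spinal cord. Each neuron is wrapped by satellite glial cells, its axon is ensheathed by Schwann cells, and resident macrophages, vessels and connective tissue fill the rest of the ganglion. Carrageenan is a seaweed polysaccharide that causes a local inflammation with swelling and hypersensitivity of the injected paw. A late time point asks what remains in the ganglia once the acute phase has passed.

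The 0d libraries held 52990278 and 61297996 counts and the 30d libraries 58593332 and 69874967, so that 1 CPM stood for 44 to 74 counts over the 8 libraries. The labels name sensory neurons as the source, and the pan-neuronal tubulin gene Tubb3 stood at 2773 and 2862 CPM at 0d and at 2635 and 2660 CPM at 30d. The neuronal Prph read 1776 and 1875 CPM against 1771 and 1747 CPM. Avil, another neuronal marker, was on the higher side, at 798 and 818 CPM against 845 and 866 CPM. The glial Apoe, at 1819 to 2286 CPM, showed that the libraries also carried much glial RNA. In such bulk RNA, fewer cells of a type and less RNA per cell cannot be told apart. The second library of 30d stood apart in 2 ways: it had a count for 17710 genes against 18378 to 19009 in the other libraries, and it held 5539 CPM of Rn45s, the precursor of ribosomal RNA, against 1550 CPM in the first library of 30d and 1116 to 4307 CPM elsewhere.

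Across the 14948 genes, 4 passed an adjusted p of 0.05 in edgeR's quasi-likelihood test (0.0268%), 1 higher (0.00669%) and 3 lower (0.0201%) at 30d. The differences were of small size, and 1 of the 4 was under 0.5 on the log2 scale. Itgb8 encodes the integrin beta8 subunit, a receptor chain that activates latent TGF-beta. It read 56.2 and 51.7 CPM at 0d, 45.1 and 49.5 CPM at 1d, 53.6 and 53.7 CPM at 3d, and 35.6 and 29.9 CPM at 30d. Both 30d libraries lay below all 6 others. The gene fell by 0.72 on the log2 scale (SE 0.08, adjusted p 0.00738), from 54.0 ± 3.2 to 32.8 ± 4.05 CPM (SD, n = 2). It lies on the minus strand of chromosome 12 (mm10, chr12:119162803-119238276).

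Ncam2, a homophilic adhesion molecule of axons, read 26.3 and 26.9 CPM at 0d, 23.8 and 25.9 CPM at 1d, 23.1 and 23.8 CPM at 3d, and 17.7 and 13.1 CPM at 30d. The 30d libraries were the 2 lowest of the 8, and the second was the lower of them. The gene, on the plus strand of chromosome 16 (mm10, chr16:81200697-81624287), fell by 0.79 (SE 0.12, adjusted p 0.0454).

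Apoe encodes the lipid carrier of the nervous system, which in ganglia comes mostly from satellite glia. It read 2286 and 2243 CPM at 0d, 2095 and 2221 CPM at 1d, 2179 and 2184 CPM at 3d, and 1819 and 1911 CPM at 30d. Again no library of another time point was as low as either of 30d. Apoe (minus strand, mm10 chr7:19696244-19699188) fell by 0.28 (SE 0.04, adjusted p 0.0322), the smallest difference of the 4.

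Slc25a37, the mitochondrial iron importer known as mitoferrin 1, was the gene that rose. It read 19.0 and 19.7 CPM at 0d, 22.2 and 19.0 CPM at 1d, 19.5 and 19.7 CPM at 3d, and 30.7 and 28.7 CPM at 30d. The 2 libraries of 30d agreed and stood above the other 6. The gene (minus strand, mm10 chr14:69241851-69285103) rose by 0.62 (SE 0.09, adjusted p 0.0424). Red blood cell precursors use it to make heme. Hbb-bs, an adult beta-globin gene, read 40.2 and 81.8 CPM at 0d, 78.1 and 76.1 CPM at 1d, 55.8 and 56.5 CPM at 3d, and 161 and 80.6 CPM at 30d. Other gene models, the near-identical Hbb-b1 among them, cover 98.6% of its annotated length, so that its reads cannot be assigned to it alone. Whether red blood cell content had a part in the difference of Slc25a37 was not tested.

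All 4 genes also passed an adjusted p of 0.05 at 30d against 3d and at 30d against 1d, in comparisons that share the 30d libraries with the main one. Over 13 other settings of the analysis, Itgb8 passed in 11, Slc25a37 in 10, Apoe in 9 and Ncam2 in 8. With each of the 8 libraries left out in turn, Itgb8 passed every time, Apoe and Slc25a37 passed in 6 of the 8 fits and Ncam2 in 5.

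At a looser adjusted p of 0.10, 72 genes passed (0.482%), 31 higher and 41 lower. The 12 higher and 12 lower genes with the smallest p, among those whose 30d libraries both lay outside the 0d pair, had differences of 0.20 to 1.26 in size and adjusted p-values of 0.00738 to 0.0734. Of these 24, 22 had both 30d libraries outside all 6 others, 11 on each side, which follows in part from how they were picked. Among all genes 8.84% were outside on the upper side and 9.62% on the lower side.

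**Figure D1:**
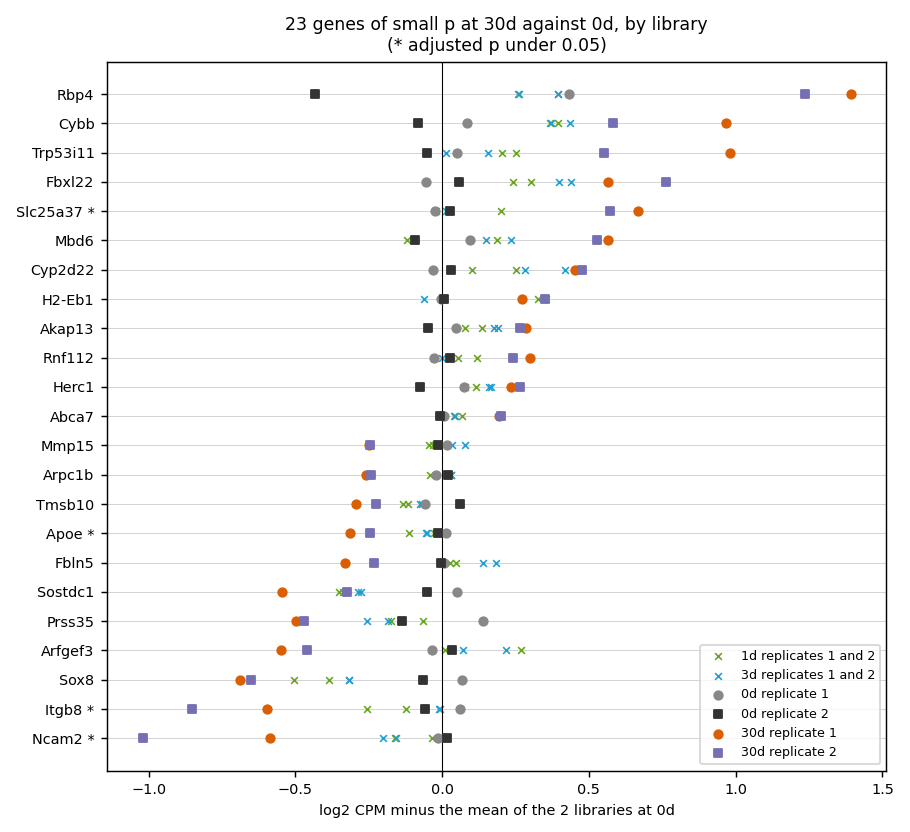
Of the 24 genes with the smallest p on either side, 23 are plotted by library as log2 CPM minus the mean of the 2 libraries of 0d, with circles and squares for 0d and 30d and crosses for 1d and 3d. The orange and purple points of 30d stand together at one edge for most genes, while Rbp4 and Ncam2 show how wide the gap between libraries of 1 time point can be.

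Among the higher genes without an adjusted p under 0.05, Rbp4, the plasma carrier of retinol, had the largest difference. It read 5.41 and 2.95 CPM at 0d and 10.5 and 9.45 CPM at 30d, a log2 difference of 1.26 (SE 0.22, adjusted p 0.0657). The 0d libraries differed from each other by much more than those of 30d. Cybb, the catalytic subunit of the phagocyte NADPH oxidase, read 7.52 and 6.70 CPM at 0d and 13.9 and 10.6 CPM at 30d (log2 difference 0.79). H2-Eb1, a beta chain of MHC class II, read 42.7 and 42.9 CPM at 0d and 51.7 and 54.5 CPM at 30d (0.31, adjusted p 0.0720). At 1d it had been at 54.7 and 53.7 CPM, as high as at 30d. Abca7, a lipid transporter of the same family as the cholesterol exporter Abca1, was close between replicates, at 252 and 250 CPM against 287 and 289 CPM, for a log2 difference of 0.20 (SE 0.04, adjusted p 0.0734). The remaining higher genes were Trp53i11, Rnf112, Mbd6, Fbxl22, Cyp2d22, Herc1, which encodes a giant ubiquitin ligase, and Akap13, which encodes an anchoring protein for protein kinase A.

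On the lower side, Fbln5, an elastic fibre protein, read 112 and 111 CPM at 0d and 88.5 and 94.8 CPM at 30d (log2 difference -0.28, adjusted p 0.0554), and at 3d it had been at 122.6 and 126 CPM. For the actin regulator Arpc1b, a subunit of the Arp2/3 complex that nucleates branched actin, read 283 and 291 CPM against 239 and 242 CPM (-0.25). Tmsb10, an actin monomer-binding peptide, read 324 and 352 CPM against 275 and 289 CPM (-0.26). Both actin genes had similar levels in their 2 libraries of 30d. Mmp15, a membrane-bound matrix metalloproteinase, read 233 and 228 CPM at 0d and 194 and 194 CPM at 30d (-0.25). Sox8, a transcription factor of the glial lineage related to Sox10, read 14.3 and 13.03 CPM at 0d, between 9.60 and 10.9 CPM at 1d and 3d, and 8.46 and 8.67 CPM at 30d (-0.67). Its 0d libraries were thus above all 6 libraries of injected mice. Prss35, Arfgef3 and Sostdc1, which encodes an antagonist of BMP and Wnt signals, were also in the lower group.

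The bulk of the differences was smaller than these. Of the 14948 genes, 1988 (13.3%) had an unadjusted p under 0.05, 990 higher (6.62%) and 998 lower (6.68%). They are called nominally higher or nominally lower here, and all but the 4 genes named first missed the adjusted threshold. Without 0d replicate 2 the 2 sides counted 493 and 659 genes, and without 30d replicate 1 they counted 1216 and 1419. The corresponding share was 4.80% at 1d and 6.62% at 3d, both set against the same 0d libraries. The median size of the log2 difference over all genes was 0.092 at 30d, 0.064 at 1d and 0.069 at 3d. Among the nominal genes of 30d it was 0.24, and 1057 of them (53.2%) stayed under 0.25. Only 120 genes of the 14948 were over 1 in size, and 799 over 0.5. Genes of low level that were tested but did not reach 1 CPM in 2 libraries were nominal in 136 of 2380 cases (5.71%), and this difference from the other genes was not tested.

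Both libraries of 30d lay above both 0d libraries for 2857 genes (19.1%) and below both for 3174 genes (21.2%). When 30d replicate 1 was set against 0d replicate 1, and 30d replicate 2 against 0d replicate 2, so that no library entered both differences, the differences had the same sign in 56.2% of genes, with a Pearson r of 0.13 across genes. With the 0d libraries exchanged, the share was 55.8% and r was 0.093. With a trend on gene length removed from each library, the shares were 56.7% and 48.5%, and r was 0.13 and 0.091. For the 10410 genes with a mean of at least 10 CPM, r was 0.21 and, exchanged, 0.17. Genes are not independent replicates, and these values describe these 4 libraries. The gene-to-gene SD of the difference between replicates was 0.34 at 30d, against 0.27 at 0d, 0.25 at 1d and 0.18 at 3d on the log2 scale. In the second library of 30d, 274 genes were more than 1 log2 unit below the first and 65 were more than 1 above it, whereas the 0d pair gave 110 and 65 such genes, the 1d pair 90 and 37, and the 3d pair 16 and 15.

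**Figure D2:**
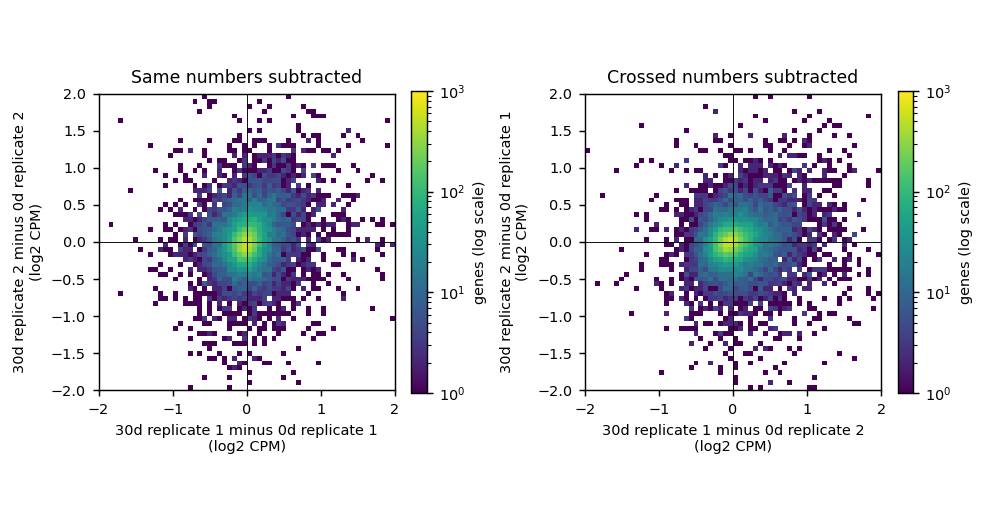
Each square counts genes by the log2 CPM difference of the first library of 30d from a 0d library (horizontal) and of the second library of 30d from the other 0d library (vertical), with the colour on a log scale. The cloud is nearly round in both assignments of the 0d libraries, with a slight lean along the rising diagonal (r of 0.13 and 0.093), and 73 genes lie beyond the axes of the left panel.

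The small differences ran with the annotated exon length of the genes. With the genes cut into 10 groups by length, in the shortest group (up to 1166 bases) the median log2 difference at 30d was -0.058, with 4.07% of genes nominally higher and 11.1% nominally lower. It climbed through each following group to 0.048 in the longest (6433 bases and over), where 14.7% were nominally higher and 2.88% lower. From end to end both 30d libraries rose with length, though not at each step, at -0.082 and -0.037 for the shortest genes and 0.051 and 0.047 for the longest, as medians of log2 CPM minus the 0d mean. The first library of 0d rose too, at -0.028 and 0.043, and so did both libraries of 3d and the first of 1d, at -0.034 to -0.031 and 0.026 to 0.033. The second library of 0d, at 0.028 and -0.043, mirrored the first because the mean of the 2 was subtracted. The second library of 1d also fell with length, at 0.023 and -0.043. Without 0d replicate 2, the longest group held 72 nominally higher and 78 nominally lower genes and its median was 0.013, against 219 and 43 genes with all libraries. Without that library the shortest group still held 37 higher and 68 lower genes, with a median of -0.031. Without 0d replicate 1 the longest group held 354 higher and 27 lower genes, with a median of 0.091. Over 10 groups by GC content of the longest transcript, the medians at 30d lay between -0.012 and 0.0037.

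**Figure D3:**
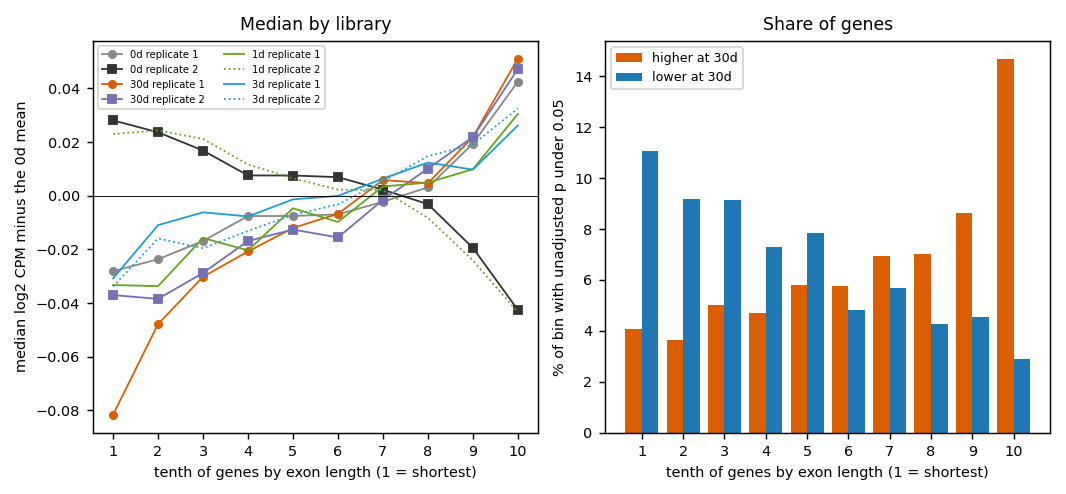
The left panel gives, for 10 equal groups of genes ordered by exon length, the median log2 CPM of each library minus the mean of the 2 libraries of 0d, and the right panel the percent of each group with an unadjusted p under 0.05 on either side at 30d. The lines of 6 libraries rise with length while those of the second libraries of 0d and 1d fall, and the bars of the higher and lower genes cross near the middle. The 2 lines of 0d mirror each other because their mean was subtracted.

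Gene classes were read against this background. With the trend on gene length removed from each library, 693 of all genes were nominally higher and 960 lower, and their median was -0.030. Of 52 gene lists with a member, 8 had both 30d medians above both 0d medians, 12 had both below and 32 were not separated. Among single genes 19.1% lay above and 21.2% below in the same way, shares near those of the lists. The medians are over the genes of a list of each library's log2 CPM minus the 0d mean. The lists were chosen with earlier results of these data known, and none is an independent test of its direction.

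The oxidative phosphorylation subunits lay to one side. They are the nuclear-encoded proteins of the respiratory chain and ATP synthase. Of 81 genes 22 were nominally lower and 0 nominally higher, against 6.68% and 6.62% of all genes, and the median log2 difference was -0.089. Ndufa4, a subunit of complex IV, read 221 and 229 CPM at 0d and 192 and 201 CPM at 30d (-0.20, adjusted p 0.0974). Uqcrq of complex III read 85.1 and 84.3 CPM against 69.9 and 74.7 CPM, and Ndufb7 of complex I read 56.9 and 59.5 CPM against 50.1 and 46.8 CPM. For each of these 3 genes, named for a small p or a high level, both 30d libraries were below both of 0d. Over the list this held for 44 of 81 genes, with 1 the other way, against 21.2% and 19.1% of all genes. The list medians were -0.14 and -0.049 in the 2 libraries of 30d, but also -0.092 and -0.063 at 3d and -0.073 in the first library of 1d. The number of nominally lower subunits was 38 without 30d replicate 2, 29 without 0d replicate 1, 12 without 0d replicate 2 and 11 without 30d replicate 1. These genes are short, and with the trend on length removed from each library the median was -0.074, against -0.030 for all genes, with 15 nominally lower.

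Lists of protein synthesis and turnover had lower medians of smaller size. Of 77 mitochondrial ribosomal protein genes 10 were nominally lower and 0 higher (median -0.086), and of 83 cytosolic ribosomal protein genes 9 and 0 (median -0.056), for which the count was 0 with the length trend removed. Without 0d replicate 2 these counts were 2 and 1, and the cytosolic count was 17 without 0d replicate 1 or 30d replicate 2. Rplp0, a stalk protein of the large ribosomal subunit, read 326 and 334 CPM at 0d and 297 and 311 CPM at 30d. Of 46 proteasome subunits 4 were nominally lower, a share near that of all genes on this side, and 0 higher, with 8 lower without 0d replicate 1, 1 without 0d replicate 2 and 1 with the length trend removed. The first library of 0d had ribosomal and proteasome medians of -0.039 to -0.026, and the second library of 30d, at -0.044 to -0.026, was close to it. Of 22 histone genes 4 were nominally lower and 0 higher, and both 30d medians (-0.10 and -0.12) were below both of 0d (0.005 and -0.005). H1f0, the linker histone of non-dividing cells, read 95.5 and 91.8 CPM at 0d and 82.0 and 81.9 CPM at 30d. The histone medians at 1d and 3d lay between -0.12 and -0.036.

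Chaperones of the heat shock and unfolded protein responses were low in both libraries of 30d. These proteins fold new or damaged proteins in the cytosol and the endoplasmic reticulum, and the 2 responses are driven through different promoter elements. Of 29 genes 12 were nominally lower and 0 higher, with a median of -0.11 and library medians of -0.072 and -0.17, against -0.030 and 0.030 in the libraries of 0d. No library of 1d or 3d was below -0.038. The count was 16 without 30d replicate 1, 6 without 30d replicate 2, 11 without 0d replicate 1 and 9 without 0d replicate 2, and 11 with the length trend removed. Hsph1, a cochaperone of the HSP70 system, read 250 and 290 CPM at 0d and 220 and 214 CPM at 30d (-0.31, SE 0.06, adjusted p 0.0664). Calr, the calcium-binding chaperone calreticulin, read 348 and 323 CPM against 294 and 285 CPM (-0.21, adjusted p 0.121). Hsp90aa1, an inducible form of HSP90, read 1012 and 1071 CPM against 950 and 930 CPM (-0.15, adjusted p 0.147). Hspa8, the constitutive HSP70 of the cytosol, had the highest level of the list and the difference was -0.08, from 2031 and 2072 CPM to 1982 and 1910 CPM. For each of these 4 genes, named for a small p or a high level, the 30d libraries were the lower pair. Over the list this held for 15 of 29 genes, with 1 the other way, against 21.2% and 19.1% of all genes.

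Promoters of 25 of the 29 chaperone genes were found in RefSeq (GRCm38.p6, the build mm10). In the 250 bases before the start site, searched on both strands, 6 of the 25 held the endoplasmic reticulum stress element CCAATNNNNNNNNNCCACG, which 35 of 27025 promoters held (0.130%), and 2 held the heat shock element GAANNTTCNNGAA, which 139 held (0.514%). The 6 were Calr, Canx, Creld2, Hsp90b1, Hspa5 and Pdia6, and the 2 were Hspd1 and Hspe1, 2 genes that share a divergent promoter. The promoters of Calr, Canx and Hspe1 are shown because they hold an element of either response, with the match in capitals, 5′ to 3′ on the strand of the gene. They were chosen after the values were seen, and a match describes letters, not binding.
Calr, chr8:84846932-84847181, minus strand: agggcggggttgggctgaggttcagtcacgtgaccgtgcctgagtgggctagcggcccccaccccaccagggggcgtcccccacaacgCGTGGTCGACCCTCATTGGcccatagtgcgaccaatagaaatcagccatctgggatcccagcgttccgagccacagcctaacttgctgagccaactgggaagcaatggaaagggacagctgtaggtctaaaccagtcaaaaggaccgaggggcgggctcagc
Canx, chr11:50325674-50325923, minus strand: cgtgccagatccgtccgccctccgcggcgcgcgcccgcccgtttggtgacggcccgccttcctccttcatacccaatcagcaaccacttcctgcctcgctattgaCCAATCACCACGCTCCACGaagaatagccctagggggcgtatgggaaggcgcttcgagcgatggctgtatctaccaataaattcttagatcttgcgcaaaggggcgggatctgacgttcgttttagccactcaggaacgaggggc
Hspe1, chr1:55087898-55088147, plus strand: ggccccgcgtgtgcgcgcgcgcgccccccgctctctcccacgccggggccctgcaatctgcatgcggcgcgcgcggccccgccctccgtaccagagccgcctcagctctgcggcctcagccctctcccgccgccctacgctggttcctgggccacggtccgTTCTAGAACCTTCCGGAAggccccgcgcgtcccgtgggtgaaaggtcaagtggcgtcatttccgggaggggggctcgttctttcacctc

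In the promoter of Calr the element lies on the opposite strand, and in that of Hspe1 the capitals are 2 overlapping matches. Canx, the membrane-bound partner of calreticulin, read 413 and 411 CPM at 0d and 387 and 372 CPM at 30d (-0.12, adjusted p 0.239). Hspe1, the small subunit of the mitochondrial chaperonin, read 39.0 and 40.7 CPM at 0d and 34.6 and 35.6 CPM at 30d (-0.19, adjusted p 0.328). Both genes were nominally lower and had no overlap between the groups.

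Lists of glia and sterols are given next. Cholesterol synthesis feeds myelin and the lipoproteins that satellite glia secrete. Of 26 genes of cholesterol synthesis and uptake 11 were nominally lower and 0 higher, with a median of -0.11 and library medians of -0.16 and -0.066 at 30d, against -0.034 and 0.034 at 0d. The first library of 1d, at -0.069, was as low as the second of 30d. Idi1, an isomerase of the isoprenoid steps, read 43.1 and 44.6 CPM at 0d and 34.5 and 38.8 CPM at 30d (-0.26, adjusted p 0.184). Msmo1, a demethylase of the late steps, read 190 and 206 CPM against 163 and 183 CPM. Hmgcs1, the cytosolic synthase at the head of the pathway, read 794 and 797 CPM against 688 and 761 CPM. In all 3 the first library of 30d was the lowest of the 8. The nominally lower count was 15 without 30d replicate 2, 13 without 0d replicate 1, 4 without 0d replicate 2 and 3 without 30d replicate 1.

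Of 20 genes of satellite glia 8 were nominally lower, Apoe among them, and 0 higher. The list medians were -0.19 and -0.12 at 30d and 0.031 and -0.031 at 0d, but -0.075 and -0.13 at 1d as well. The count was between 5 and 10 whichever library was left out, with 5 without 0d replicate 1. Gja1, the connexin 43 that couples satellite cells, read 35.2 and 35.3 CPM at 0d, between 27.9 and 30.0 CPM at 1d and 3d, and 29.4 and 28.3 CPM at 30d (-0.29, adjusted p 0.130). Kcnj10, the inward rectifier that buffers potassium around the neuron, read 104 and 108 CPM at 0d and 78.4 and 93.1 CPM at 30d (-0.30). For Gja1 the 0d pair stood above every later library.

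Of 23 genes of lipoproteins and lipid efflux 3 were nominally higher and 2 lower, with medians of 0.052 and 0.031 at 30d against 0.023 and -0.023 at 0d, and the nominally higher count was 0 without 0d replicate 2, 1 without 30d replicate 1, 5 without 30d replicate 2 and 6 without 0d replicate 1.

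Of 22 Schwann cell myelin genes 5 were nominally lower and 1 higher, and the libraries of 1 time point differed more than the groups. The list medians were 0.20 and -0.20 at 0d and -0.47 and -0.10 at 30d, so that the second library of 30d lay above the second of 0d. Gal3st1, the sulfotransferase that makes the myelin lipid sulfatide, was closer between replicates, at 27.7 and 23.6 CPM against 18.3 and 20.6 CPM (-0.40, adjusted p 0.130). The nominally lower count was 16 without 30d replicate 2, 13 without 0d replicate 2 and 3 without 0d replicate 1 or 30d replicate 1, and it was 11 without robust estimation. The gene on the higher side was Cntnap1, which neurons make for the paranodal junction, at 266 and 251 CPM against 286 and 274 CPM.

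**Figure D4:**
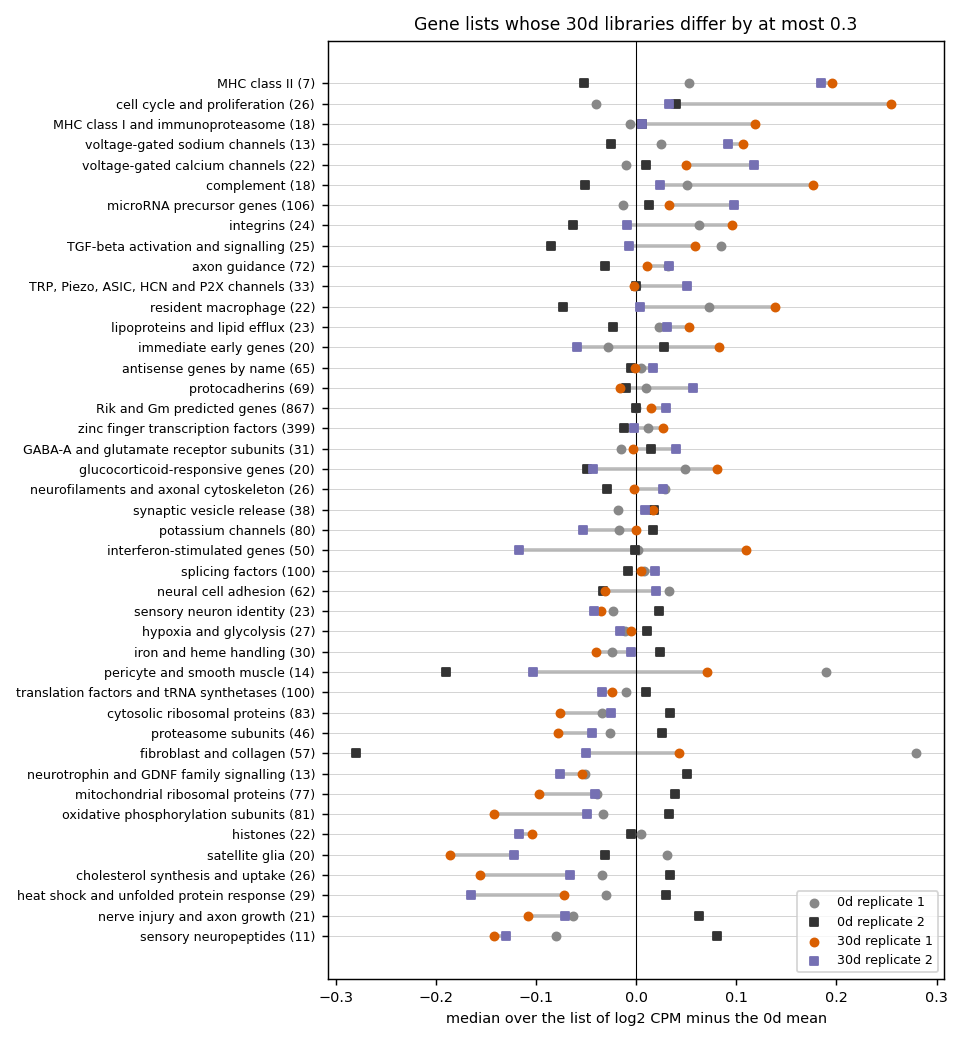
Each row is a gene list with at least 7 genes (number in brackets) whose 2 medians at 30d differ by at most 0.3, and each point is the median over the list of log2 CPM minus the 0d mean in a library of 0d (grey, black) or 30d (orange, purple). Chaperone, cholesterol, satellite glia and histone lists have both points of 30d to the left of both points of 0d, MHC class II and sodium and calcium channels have them to the right, and the fibroblast list shows a wide gap between the 0d libraries.

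Neuronal genes were read by list. Of 11 sensory neuropeptide genes 4 were nominally lower and 1 higher, with a median of -0.14. Adcyap1, which encodes the peptide PACAP, read 73.2 and 81.7 CPM at 0d and 66.6 and 61.4 CPM at 30d (-0.28, adjusted p 0.121), after 84.0 to 91.8 CPM at 1d and 3d. Cartpt, another peptide precursor, read 11.6 and 12.7 CPM against 7.95 and 8.55 CPM (-0.56, adjusted p 0.132). Calca, the source of calcitonin gene-related peptide and the most abundant of the list, read 798 and 892 CPM at 0d, 864 to 1076 CPM at 1d and 3d, and 791 and 784 CPM at 30d (-0.10, adjusted p 0.450). The peptide medians at 1d and 3d, from -0.017 to 0.19, were above those of 30d (-0.14 and -0.13), while the first library of 0d stood at -0.080. Without 0d replicate 2 the median was -0.021 and 2 genes were nominally lower, and without 0d replicate 1 it was -0.28 with 7.

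Of 13 genes of neurotrophin and GDNF family signalling 3 were nominally lower and 0 higher. Bdnf, a neurotrophin that sensory neurons release onto spinal targets, read 32.8 and 35.5 CPM at 0d, 42.3 and 42.9 CPM at 1d, 49.4 and 54.7 CPM at 3d, and 26.5 and 21.2 CPM at 30d. It was the gene of this list with the smallest p (-0.52, SE 0.10, adjusted p 0.0664), and its adjusted p was 0.000157 at 30d against 3d (-1.13). The levels at 3d were the highest and those at 30d the lowest of the course. Ntrk3, the receptor of neurotrophin 3, read 47.1 and 40.2 CPM against 37.6 and 33.6 CPM (-0.29, adjusted p 0.229), and Ret, the GDNF coreceptor, 936 and 1005 CPM against 934 and 845 CPM. In the nerve injury and axon growth list, 5 of 21 were nominally lower and 2 higher, from 1 to 9 lower as libraries were left out. Marcks, a membrane-cytoskeleton protein of growth cones, read 155 and 143 CPM at 0d and 120 and 129 CPM at 30d (-0.26, adjusted p 0.0734), and it had been at 122.7 to 124 CPM at 1d and 3d.

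Of 13 voltage-gated sodium channel genes 5 were nominally higher and 0 lower, with library medians of 0.11 and 0.092 at 30d against 0.025 and -0.025 at 0d. Scn4b, an auxiliary subunit, read 492 and 460 CPM at 0d and 510 and 550 CPM at 30d (0.16, SE 0.05, adjusted p 0.192). Scn8a, the channel of nodes of Ranvier, read 314 and 278 CPM against 318 and 349 CPM. Of 22 voltage-gated calcium channel genes 7 were nominally higher and 0 lower, among them Cacna1b, the N-type pore subunit of sensory terminals, at 195 and 181 CPM against 214 and 211 CPM. These are long genes. With the length trend removed the nominally higher counts were 0 sodium and 1 calcium channel genes and the medians 0.032 and 0.062. The median over all genes was -0.030 in that setting. Without 0d replicate 2 the counts were 2 and 4, and without 30d replicate 2 they were 2 and 5. Of 80 potassium channel genes 5 were nominally higher and 8 lower, with a median of 0.005. Kcnh5, an EAG family channel, read 10.8 and 10.8 CPM at 0d and 6.77 and 6.95 CPM at 30d, a difference of -0.65 (SE 0.13, adjusted p 0.0664) with close replicates at both times.

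Further lists of neuronal genes, and the splicing factors, were read in the same way. Of 26 neurofilament and axonal cytoskeleton genes 8 were nominally higher and 3 lower, which came to 3 and 1 with the length trend removed. Sptan1, the alpha spectrin of axons, read 1538 and 1414 CPM at 0d and 1698 and 1725 CPM at 30d (0.21, adjusted p 0.0734), and the tubulin-binding Stmn1 read 192 and 203 CPM against 168 and 177 CPM (-0.20, adjusted p 0.139). Of 72 axon guidance genes 10 were nominally higher and 1 lower, against 3 and 4 with the trend removed and 0 and 4 without 0d replicate 2. Of 23 markers of sensory neuron identity 1 was nominally higher and 4 lower, with library medians of -0.035 and -0.042, and with the length trend removed 0 were higher and 2 lower. As libraries were left out, 0 to 3 were higher and 1 to 4 lower. Of 100 splicing factors 15 were nominally higher and 7 lower, but 7 and 10 with the length trend removed, 12 and 12 without 30d replicate 1 and 2 and 3 without 0d replicate 2. Rbm3, an RNA-binding protein induced by cold, read 73.8 and 75.1 CPM at 0d and 85.9 and 95.7 CPM at 30d (0.29, adjusted p 0.0797).

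MHC class II molecules present peptides to helper T cells and are made by macrophages and other antigen-presenting cells. Of 7 genes of the class 5 were nominally higher and 0 lower, and the same numbers were found with the length trend removed, with library medians of 0.20 and 0.18 at 30d against 0.052 and -0.052 at 0d. Beside H2-Eb1, the invariant chain Cd74 read 131 and 122.8 CPM at 0d and 146 and 140 CPM at 30d (0.17, adjusted p 0.190). Ciita, the master activator of the class, read 3.31 and 2.80 CPM against 4.55 and 4.93 CPM (0.63, adjusted p 0.256). H2-Aa and H2-Ab1 had differences of 0.19 and 0.17. The class had been at 0.35 and 0.21 at 1d and at -0.061 and -0.12 at 3d. The count was 2 without 0d replicate 2 and 4 or 5 without any other of the 0d and 30d libraries.

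The macrophage list was mixed. Of 22 genes 5 were nominally higher and 1 lower, and the median was 0.025. Cx3cr1, the fractalkine receptor, read 10.8 and 10.9 CPM at 0d and 8.37 and 7.41 CPM at 30d (-0.46), and only 5.64 and 5.06 CPM at 3d. Ptprc, the leukocyte antigen CD45, read 5.07 and 4.37 CPM against 10.1 and 6.21 CPM, and the haptoglobin-hemoglobin receptor gene Cd163 read 5.25 and 4.21 CPM against 10.7 and 6.17 CPM. For Ptprc and Cd163 the first library of 30d carried most of the difference, and without it 1 gene of the list was nominally higher. The interferon-stimulated genes, whose medians were 1.19 and 0.89 at 1d, were at 0.11 and -0.12 at 30d, with 3 of 50 nominally higher and 4 lower, and 1 and 13 without 30d replicate 1.

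Blood, fat and muscle genes separated the 2 libraries of 30d from each other. Of 15 neutrophil genes 7 were nominally higher and 0 lower, with a median log2 difference of 1.08, but the library medians were 1.65 and 0.52 at 30d and -0.53 and 0.53 at 0d. The second library of 30d was thus level with the second of 0d. S100a8, a calcium-binding protein of neutrophil granules, read 6.46 and 12.7 CPM at 0d, 15.9 to 20.9 CPM at 1d and 3d, and 31.8 and 15.3 CPM at 30d (adjusted p 0.419). Itgam, the integrin CD11b of neutrophils and macrophages, read 4.33 and 4.53 CPM against 9.97 and 6.36 CPM (0.88, adjusted p 0.1002). The nominally higher count was 12 without 30d replicate 2, 10 without 0d replicate 2 and 3 without 30d replicate 1 or 0d replicate 1, and it was 14 without robust estimation.

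The red blood cell list behaved alike, with medians of 1.30 and 0.41 at 30d and -0.49 and 0.49 at 0d, and 2 of 17 genes were nominally higher, with 7 without 0d replicate 2 or 30d replicate 2 and 11 without robust estimation. The 17 include globin copies whose reads are shared. Alas2, the erythroid enzyme that starts heme synthesis, read 4.21 and 8.41 CPM at 0d and 19.8 and 9.28 CPM at 30d. Fat genes were high in the first library of 30d, with a median of 1.67 over 12 genes, and not in the second, at -0.063. Plin1, which coats the lipid droplet, read 0.491 and 0.897 CPM at 0d and 2.48 and 1.09 CPM at 30d. The desaturase Scd1, the gene of the list with the smallest p, was on the lower side, at 1067 and 1099 CPM against 970 and 948 CPM (-0.18, adjusted p 0.0734). Muscle genes were low in the second library of 30d, at -1.54 over 25 genes, and near the 0d mean in the first, at 0.051, while the 0d libraries stood at 0.40 and -0.40 and the first library of 1d was as low, at -1.63. Acta1, the skeletal muscle actin, read 41.7 and 23.1 CPM at 0d and 27.7 and 4.84 CPM at 30d. Of the 274 genes more than 1 log2 unit lower in the second library of 30d, 17 were among the 25 muscle genes, 8 among the 15 neutrophil genes, and 7 each among the 17 red blood cell and 12 fat genes.

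**Figure D5:**
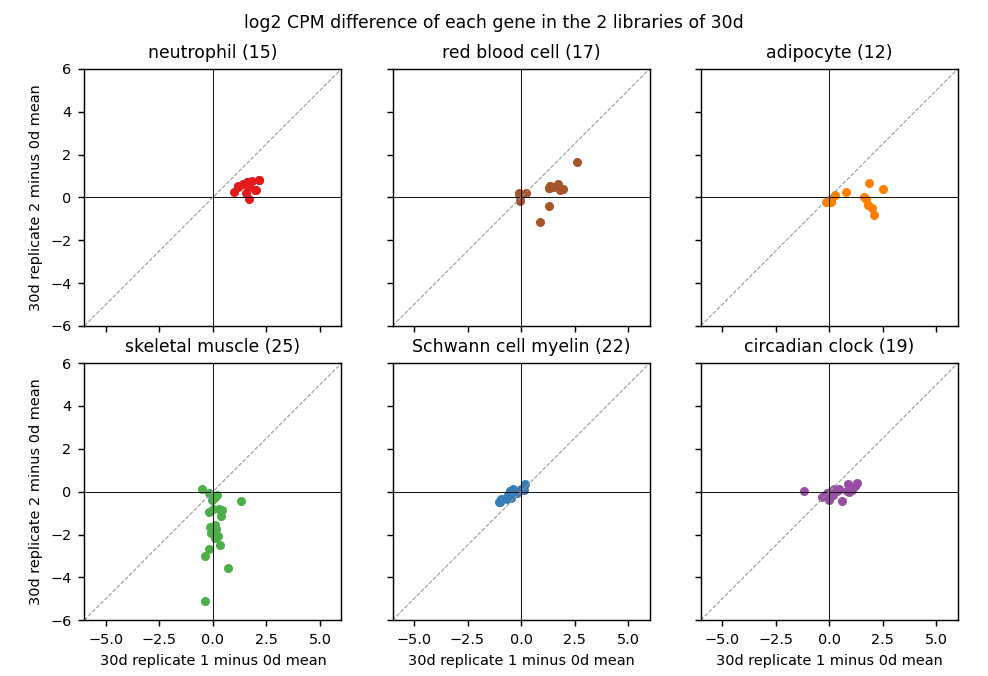
Each point is a gene, placed by its log2 CPM minus the 0d mean in the first (horizontal) and the second (vertical) library of 30d, for 6 lists with the number of genes in brackets. Neutrophil, red blood cell and fat genes spread to the right along the first library, muscle genes downward along the second, and few points of these lists lie on the dashed line of equal difference.

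The circadian clock list had medians of 0.35 and 0.038 at 30d and 0.13 and -0.13 at 0d, with 2 of 19 nominally higher. That count was 9 without 30d replicate 2, 5 without 0d replicate 1, 0 without 30d replicate 1 or 0d replicate 2, and 6 without robust estimation. Tef, a clock-driven transcription factor, read 110 and 103 CPM at 0d and 140 and 112 CPM at 30d. Fibroblast and collagen genes had medians of 0.28 and -0.28 in the 2 libraries of 0d and 0.043 and -0.050 at 30d, so that the untreated pools lay on either side of both later ones. Of 106 microRNA precursor genes, most of which lie within longer host genes, 8 were nominally higher, a share near that of all genes on this side, and 0 lower, against 6.68% of all genes. The direction turned with the length trend removed, to 5 higher and 9 lower, and without 30d replicate 1 there were 12 and 6, without 0d replicate 2 only 2 and 1. Reads were counted without strand and for every overlapping gene, so those counts cannot be told apart from their hosts'. Of 30 iron and heme genes, Slc25a37 among them, 4 were nominally higher and 4 lower. Fth1, the heavy chain of the iron store ferritin, read 1605 and 1646 CPM at 0d and 1366 and 1546 CPM at 30d, on the lower side while the iron importer was on the higher.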

How the data were processed

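RNA of 8 libraries from mouse dorsal root ganglia was sequenced in pairs of reads. The authors used cutadapt 2.10 for trimming, STAR 2.7.5a for alignment to mm10 and featureCounts 2.0.1 for counting over the exons of UCSC genes. The deposited values are these raw counts, unnormalized. A pair under more than 1 gene added to each, without regard to strand. Time points and replicate numbers came from the labels.

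For the selection of genes at 1 CPM, CPM was computed with the total of each library. The CPM values given for genes used TMM-scaled totals of the fitted genes, as did log2 CPM, with a prior count of 2. The 8 libraries were fitted together in edgeR 4.0.16 (R 4.3.3) with filterByExpr, TMM and the robust quasi-likelihood F-test, on time point alone. Benjamini-Hochberg adjustment ran over the 17328 fitted genes, and a gene was called at an adjusted p under 0.05. The SE of a log2 difference is its size over the square root of F. No test was run on lists. The p-values measure the spread between pools. The common biological coefficient of variation was 8.85%. At 1 CPM a library held 44 to 74 counts, where counting error exceeds that spread, and at higher levels the spread between pools limits the precision.

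The genes described and the lists were chosen with earlier results of these data known. The patterns that define the microRNA, antisense and integrin lists were tightened after their values had been seen. The genes named are those past the threshold, the 12 higher and 12 lower genes of smallest p whose libraries lay apart, and in each list the 3 of smallest p and the 2 of highest level. Canx, Hspe1, Cntnap1, S100a8, Hbb-bs, H2-Aa, H2-Ab1, the general markers and Rn45s were named after their values had been seen. Some genes that the rule selects are not reported here. GC was that of the longest transcript in GENCODE vM21, found for 14388 genes (96.3%), and promoters from RefSeq.

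The replicate numbers do not pair the pools by the labels, and the deviations of same-numbered libraries of 0d and 30d from their group means had a correlation of 0.040. The alternatives were other normalizations and filters, fits without robust estimation or of the 0d and 30d libraries alone, the replicate number as a block, trends on length or GC content removed with 5 degrees of freedom, libraries thinned to the smallest total, DESeq2 1.42.0, limma 3.58.1 (voom) and each library left out. The main fit was also run on simulated counts. These had no length trend and no library that stood apart, so the run does not bear on either.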

Additional observations from a re-analysis of the deposited data

How the results depend on the processing

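The number of genes called at 30d was the value most open to the analysis. Against 4 genes, 0 were called in edgeR without robust estimation (1997 with an unadjusted p under 0.05) and in a fit of the 0d and 30d libraries alone, 2 by limma-voom, 12 with a GC trend removed, 13 with a length trend removed, 20 in thinned libraries, 176 without a filter on low counts, 183 by DESeq2 and 72 at an adjusted p under 0.10. Leaving out 1 library gave 1 to 200 genes, with 200 without 30d replicate 2, 90 without 0d replicate 1, 58 without 30d replicate 1, 28 without 0d replicate 2, 18 and 19 without either library of 1d and 1 without either library of 3d. With the replicate number as a block, 69 genes were called, and 110 with the length trend removed as well. The numbers are not a pairing by the labels. Deviations of same-numbered libraries had a correlation of 0.040 between 0d and 30d and of 0.087 between 0d and 1d. The second libraries of 0d and 1d did run alike along gene length.

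The 1988 genes with an unadjusted p under 0.05 became 1299 in the fit of 0d and 30d alone, where 564 were lower against 998. Leaving out 1 library gave 1152 to 2635 genes, 493 to 1241 higher and 659 to 1419 lower, with the lowest values on both sides without 0d replicate 2. The correlation of the 2 differences at 30d was 0.13 over all genes and 0.21 at a mean of at least 10 CPM. The causes were not tested. Of 1092 list medians under other settings 137 moved by more than the spread between replicates. No gene given with a log2 difference changed direction under these settings. The 2 pools per time point, with no control of the same age at 30d, limit every value given here.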
